A study of Rattus norvegicus with 12 samples.

Results

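The comparison described here is the IAPP challenge inside urolithin B-treated INS-1 832/3 cells. It sets the 3 libraries of cells that received urolithin B and then IAPP against the 3 libraries of cells that received urolithin B alone, so 6 of the 12 libraries of the series carry it, and it was read across all genes. INS-1 832/3 is a rat insulinoma cell line of wild-type genotype that secretes insulin, and all groups were grown in the same serum-containing medium. Cells of the urolithin B group had 50 uM urolithin B for 12 h. Cells of the second group had the same pretreatment followed by 2 uM IAPP for 24 h. The other 6 libraries, used here to set the same challenge beside its size without pretreatment, were 3 of untreated control cells and 3 of cells given 2 uM IAPP for 24 h alone. The labels do not say whether cells with urolithin B alone were held for a further 24 h before harvest, and if they were not, the added time and the peptide cannot be told apart. A cell line that is 1 clonal tumour-derived population also limits what the samples stand for: they hold no other islet cells and no islet architecture.

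IAPP, islet amyloid polypeptide or amylin, is a hormone that beta cells release together with insulin. The human peptide aggregates readily into amyloid and its deposits are found in the islets of people with type 2 diabetes, whereas the rat peptide does not readily do so, and the labels do not name the species of the peptide used. Urolithin B is a metabolite that gut bacteria make from ellagic acid. The responses commonly read out in beta cells under amyloid or other proteotoxic load are the p53 response, in which the transcription factor p53 raises genes of cell cycle arrest (Cdkn1a, Ccng1), its own inhibitor (Mdm2) and cell death (Bbc3), the unfolded protein response of the endoplasmic reticulum, and loss of beta-cell identity genes such as Mafa and Slc2a2.

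The 3 urolithin B libraries held 4927585 to 6583860 counts and the 3 with IAPP added held 5224896 to 6681455. The labels call the replicates biological without saying whether they were separate cultures, so each p-value is set by library-to-library spread that may be technical alone. Replicate 1 stood apart in each group, with 22139 and 22147 genes detected in the 2 groups compared against 19529 to 20201 in their replicates 2 and 3. Deviations from the group means of the same-numbered libraries of the 2 groups were correlated over genes, with r of 0.84, 0.44 and 0.56 for replicates 1, 2 and 3, and fell to between -0.06 and 0.02 over all same-numbered pairs once replicate 1 was left out. Urolithin B replicate 2 differed from replicate 3 of its group by a chi-square of 17.6 per degree of freedom, against 3.71 to 5.27 for replicates 2 and 3 of the other groups. The cell type label fitted most of its markers. Ins1 and Ins2 took 1.49% to 2.65% of counts in the 6 libraries. Of the other beta-cell markers, Pdx1, Nkx6-1, Mafa, Slc2a2, Chga, Pcsk1 and Slc30a8 were detected in all 6, whereas Neurod1 was listed at 0 in each. Markers of other cell types were low apart from Gcg: summed over the list, 11 immune genes gave 9.80 to 35.0 CPM with urolithin B alone and 9.23 to 44.2 after IAPP (Lyz2 among those at 0), 12 fibroblast and endothelial genes 18.8 to 49.9 and 19.3 to 80.1 (Col1a2 at 0), 13 exocrine and ductal genes 28.9 to 35.9 and 24.6 to 40.0 (Prss1, Prss2, Cpa1 and Pnlip at 0), and 10 genes of other islet cells 43.9 to 215 and 48.0 to 206 (Irx1, Ttr, Sst and Ppy at 0). Most of the last sum came from Gcg, the glucagon gene. It had 210, 1354 and 670 counts in urolithin B replicates 1, 2 and 3 and 254, 857 and 1182 after IAPP. The part of these markers in the results was not tested.

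The urolithin B-pretreated cells showed few measurable changes when IAPP was added. Of 16814 genes tested with edgeR's quasi-likelihood test with the replicate number as a block, 0 were called higher after IAPP (0%) and 2 were called lower (0.0119%) at a Benjamini-Hochberg adjusted p under 0.05. The genes called lower were Ambp and Plcxd3. Where no other tool is named, called means by this edgeR fit. At an unadjusted p under 0.05, 680 genes were higher (4.04%) and 526 were lower (3.13%), 1206 in all (7.17%). DESeq2 with the same block called 1 gene higher (Manf) and 6 lower, and limma-voom called 0 higher and the same 2 lower. Without the replicate block edgeR called 0 genes in either direction, with 281 genes at an unadjusted p under 0.05 (1.67%). The calls were sensitive to single libraries: leaving out urolithin B replicate 2 gave 4 genes higher and 15 lower, while leaving out urolithin B replicate 1, urolithin B + IAPP replicate 2 or urolithin B + IAPP replicate 3 gave 0 and 0, and leaving out urolithin B + IAPP replicate 1 gave 0 and 1.

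The low count can be read against the precision of the comparison. The median standard error of a log2 fold change was 0.19 over all tested genes and 0.15 over the 12249 genes with at least 5 CPM (read counts scaled to library size and TMM factor) in the higher group. For 12921 genes (76.8%) the 95% interval of the change lay wholly within 2-fold in either direction. Among genes with at least 5 CPM, the change of greatest size was 1.20 on the log2 scale, and 0 genes reached a 4-fold change. The median log2 fold change over all genes was 0.01. The 3 pairs of libraries all pointed higher for 2294 genes (13.6%) and all lower for 1933 genes (11.5%). The libraries of the groups did not overlap for 494 genes higher (2.94%) and 419 genes lower (2.49%) after IAPP. These shares are the background for each gene given below as without overlap. Most of those genes were named by their small p in this same comparison, so their lack of overlap is no separate evidence.

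Ambp, which encodes the precursor of the secreted proteins alpha-1-microglobulin and bikunin, was the gene with the smallest p. Its level was 117, 95.8 and 99.8 CPM in urolithin B replicates 1, 2 and 3, and 68.95, 57.7 and 62.7 CPM after IAPP. All 3 libraries given IAPP lay below all 3 without it. The log2 fold change was -0.72 ± 0.12 (SE, n = 3 libraries per group, edgeR adjusted p = 0.0123), with a 95% interval of -0.96 to -0.48, and the differences of pairs 1, 2 and 3 were -0.76, -0.73 and -0.67. Plcxd3, a member of the phosphatidylinositol-specific phospholipase C X-domain family, stood at 159, 117 and 72.1 CPM with urolithin B alone. After IAPP it stood at 108, 56.4 and 45.99 CPM. The groups overlapped because replicate 1 was the highest library in both, but the library given IAPP was the lower one in each of the 3 pairs. Its log2 fold change was -0.75 ± 0.12 (SE, n = 3 per group, edgeR adjusted p = 0.0123), with a 95% interval of -0.998 to -0.50. Without the replicate block the log2 values were -0.72 for Ambp and -0.73 for Plcxd3 and neither was called. With 1 library of either group left out, Ambp ran from -0.82 to -0.66 and was called only without urolithin B replicate 2 (the edgeR adjusted p was 0.0624 to 0.216 for the other 5), and Plcxd3 ran from -0.91 to -0.62 and was not called without urolithin B replicate 1 (0.0624) or urolithin B + IAPP replicates 2 (0.209) and 3 (0.566). In bulk RNA such as this, fewer cells that express a gene and less of its RNA per cell cannot be told apart.

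Both genes were also lower after IAPP in cells that had no urolithin B. There Ambp was at 119, 110.3 and 87.7 CPM in control and 71.6, 45.99 and 43.2 CPM in IAPP libraries, a log2 fold change of -0.99 ± 0.12 (SE, n = 3, edgeR adjusted p = 2.92e-06). Plcxd3 was at 158, 108 and 99.5 CPM in control and 91.3, 59.96 and 55.7 CPM in IAPP libraries, a log2 fold change of -0.83 ± 0.12 (SE, n = 3, edgeR adjusted p = 5.58e-05). A difference in the size of the IAPP effect between pretreated and other cells did not pass the test for either gene: it was 0.27 ± 0.16 for Ambp (95% interval -0.07 to 0.61, edgeR adjusted p = 0.523) and 0.08 ± 0.17 for Plcxd3 (95% interval -0.27 to 0.43, edgeR adjusted p = 0.902). These intervals still allow a smaller change of Ambp with pretreatment, by up to 0.61 on the log2 scale.

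The promoters of the genes on which the comparison turns are shown as they stand in RefSeq (GRCr8), from 250 bases before to 50 bases after the annotated start. Ambp and Plcxd3 are shown because they were the genes called, and Cdkn1a and Nqo1 because their IAPP effect differed with pretreatment. Capitals mark matches on either strand to the motifs searched: the XRE core GCGTG, the CCAAT box, the E-box CACGTG, the AP-1 site TGANTCA, the GC box GGGCGG, the TGACG core of the cAMP response element, and a decamer of the p53 response element, the last added after the values were seen.
Ambp, chr5:81593808-81594107, minus strand: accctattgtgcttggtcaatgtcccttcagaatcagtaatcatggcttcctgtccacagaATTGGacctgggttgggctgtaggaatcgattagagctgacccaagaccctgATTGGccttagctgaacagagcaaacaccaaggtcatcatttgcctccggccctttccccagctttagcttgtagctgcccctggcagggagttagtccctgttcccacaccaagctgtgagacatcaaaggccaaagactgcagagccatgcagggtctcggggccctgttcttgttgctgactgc
Plcxd3, chr2:55294347-55294646, plus strand: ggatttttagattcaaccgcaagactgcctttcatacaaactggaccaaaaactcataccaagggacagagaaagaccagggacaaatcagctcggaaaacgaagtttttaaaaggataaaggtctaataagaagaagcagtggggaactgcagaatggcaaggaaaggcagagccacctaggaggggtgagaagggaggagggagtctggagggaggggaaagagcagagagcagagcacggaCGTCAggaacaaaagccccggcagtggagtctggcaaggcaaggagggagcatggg
Cdkn1a, chr20:7150682-7150981, plus strand: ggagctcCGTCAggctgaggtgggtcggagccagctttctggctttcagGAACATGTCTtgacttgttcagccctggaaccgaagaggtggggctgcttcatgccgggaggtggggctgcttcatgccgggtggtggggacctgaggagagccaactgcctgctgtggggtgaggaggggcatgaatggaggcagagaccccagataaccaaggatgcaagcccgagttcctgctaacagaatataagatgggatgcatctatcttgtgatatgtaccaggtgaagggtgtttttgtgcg
Nqo1, chr19:52220218-52220517, minus strand: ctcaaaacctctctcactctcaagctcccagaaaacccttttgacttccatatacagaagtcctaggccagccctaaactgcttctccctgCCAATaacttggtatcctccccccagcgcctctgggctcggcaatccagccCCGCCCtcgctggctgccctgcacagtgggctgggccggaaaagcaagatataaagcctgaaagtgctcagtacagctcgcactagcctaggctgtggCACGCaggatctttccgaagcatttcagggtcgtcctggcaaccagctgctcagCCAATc
The Ambp window held 2 CCAAT boxes, which 37.5% of all 33469 promoter windows of that length hold at least once. The Plcxd3 window held 1 TGACG core, found in 21.2% of windows, beginning 6 bases before the start. The Cdkn1a window held the same core and, 201 bases before the start, a p53 decamer, which 7.98% of windows hold. The Nqo1 window held an XRE core, the motif of the aryl hydrocarbon receptor, 10 bases before the start (29.7% of windows), with 2 CCAAT boxes and 1 GC box (33.1% of windows). The called genes shared none of the motifs searched. These matches describe letters in the reference and were not measured in these cells.

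**Figure D1:**
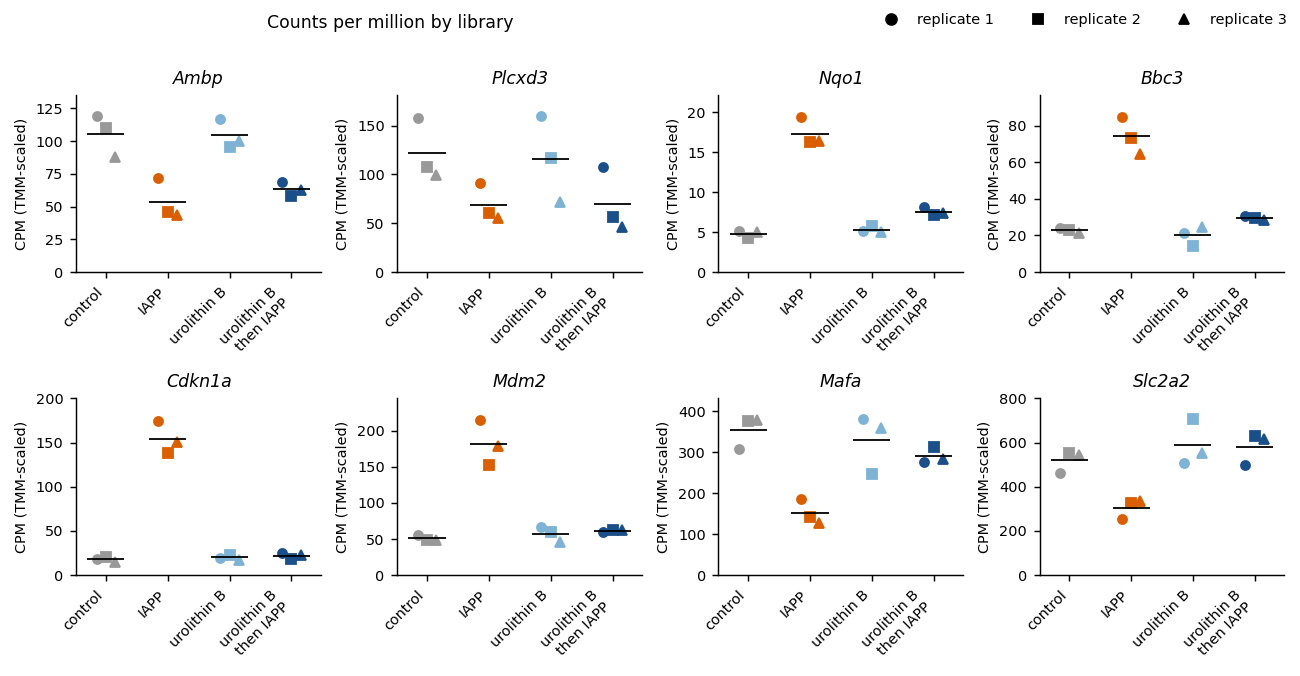
Level of 8 genes in each of the 12 libraries, in TMM-scaled CPM on linear axes from 0. Each point is 1 library, its shape gives the replicate number, and the horizontal bar is the group mean of 3. Ambp and Plcxd3 are lower after IAPP in both settings, whereas Cdkn1a, Mdm2, Mafa and Slc2a2 differ clearly between control and IAPP libraries and little between the urolithin B groups.

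Beyond the called genes, the 10 genes with the smallest p in each direction were taken as the named set. The 8 others on the lower side were not called by edgeR, while DESeq2 called Cacna1a, Gcnt6 and Ralgapa2 among them. They included Cacna1a, the pore-forming subunit of the P/Q-type calcium channel, Pde2a, a cyclic nucleotide phosphodiesterase, Rgs16, a regulator of G-protein signalling, P4ha1, a collagen prolyl hydroxylase subunit, Nsun2, an RNA methyltransferase, Abca1, the cholesterol efflux transporter, Ralgapa2, a subunit of a GTPase-activating complex for Ral, and Gcnt6. Pde2a was at 21.2, 22.4 and 18.1 CPM with urolithin B alone and 12.7, 11.8 and 11.3 CPM after IAPP, with no overlap, and a log2 difference of -0.78 ± 0.17 (SE, n = 3). Rgs16 was at 48.99, 50.1 and 53.4 CPM and 33.8, 32.1 and 39.5 CPM, also without overlap, a difference of -0.53 ± 0.12. Cacna1a was at 305, 618 and 465 CPM and 215, 401 and 369.7 CPM, lower in each pair though the groups overlapped, a difference of -0.49 ± 0.10. None passed, with edgeR adjusted p of 0.211 for Pde2a, 0.211 for Rgs16 and 0.21 for Cacna1a.

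Of the 10 genes with the smallest p on the lower side, 8 were also called lower in IAPP against control in cells without urolithin B, where 4.04% of all tested genes were called lower. The exceptions were Gcnt6 (-0.15 without and -0.59 with urolithin B, on the log2 scale) and Abca1 (-0.15 and -0.45). Pde2a showed log2 changes of -1.26 without and -0.78 with urolithin B, Rgs16 -0.80 and -0.53, Nsun2 -0.61 and -0.44, and Cacna1a -0.49 in both settings. The difference between settings was called for 0 of these 10 by edgeR. At an unadjusted p under 0.05 over the whole table, 102 of the 526 genes lower after IAPP with urolithin B (19.4%) were called lower without it, which was 15% of the 680 called there. On the higher side 36 of 680 (5.29%) were called higher without it, where 3.78% of all tested genes were. These 36 were 5.66% of the 636 called there. In the opposite direction, 17 of the 526 lower genes (3.23%) were called higher without urolithin B, and 13 of the 680 higher genes (1.91%) were called lower. The compared settings share no libraries, though they share the replicate block and each gene's estimate of spread from 1 fit. A gene with a small estimated spread can thus have a small p in both, so these overlaps are not independent.

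On the higher side the smallest p belonged to Manf, a secreted protein of the endoplasmic reticulum that is raised in the unfolded protein response. It was at 33.8, 70.8 and 77.3 CPM with urolithin B alone and 53.9, 98.6 and 102 CPM after IAPP. Each library given IAPP exceeded its pair partner, though replicate 1 was low in both groups and the groups overlapped. The log2 difference was 0.51 ± 0.10 (SE, n = 3, edgeR adjusted p = 0.151), and in cells without urolithin B it was -0.25. The difference between the settings was called, at 0.76 ± 0.15 (edgeR adjusted p = 0.00484). Hopx, a small homeodomain protein that does not bind DNA, was at 9.02, 5.44 and 9.83 CPM and 15.1, 18.5 and 17.6 CPM, with no overlap and a log2 difference of 1.08 ± 0.22 (edgeR adjusted p = 0.151). Med21, a subunit of the Mediator complex, was at 11.8, 12.4 and 16.2 CPM and 23.2, 22.03 and 21.2 CPM, a difference of 0.73 ± 0.17. Its IAPP effect differed between settings by 0.95 ± 0.24 (edgeR adjusted p = 0.0397). Manf and Med21 were picked by their small p in the comparison with urolithin B, which is 1 part of this difference. Their called differences are therefore not independent of that choice.

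The other higher genes of this set, none called, were Plgrkt, a plasminogen receptor (0.56 ± 0.12), Trappc3, a subunit of a vesicle tethering complex (0.54 ± 0.12), Gsto1, an omega-class glutathione transferase (0.42 ± 0.10), Rpa3, a subunit of the single-strand DNA binding protein RPA (0.74 ± 0.18), Foxred2, a protein of endoplasmic reticulum degradation (1.71 ± 0.39), and the tRNA genes Trnq (0.62 ± 0.14) and Trnak-cuu (2.90 ± 0.64), as log2 differences with SE. Foxred2 lay at 1.77, 0.622 and 1.93 CPM and 5.40, 4.20 and 4.27 CPM, and Trnak-cuu at 0, 0.467 and 0.578 CPM and 0.477, 3.36 and 4.27 CPM, so both rest on few reads. Libraries primed on poly(A) tails are poorly suited to tRNA, and reads of tRNA genes with near-identical copies are uncertain. Of the 10 higher genes, 0 were called in IAPP against control by edgeR. In the urolithin B group replicate 2 was the lowest library for Hopx, Plgrkt, Trappc3 and Foxred2.

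**Figure D2:**
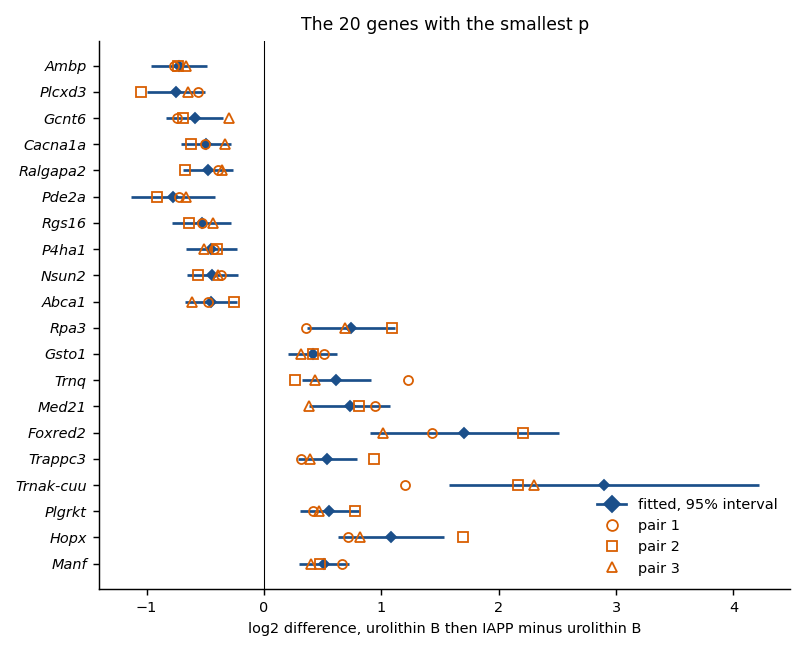
Log2 difference between urolithin B then IAPP and urolithin B alone for the 20 genes with the smallest p. Diamonds and bars are the fitted value and its 95% interval, and open symbols are the differences of the 3 same-numbered pairs of libraries. All 3 pairs lie on 1 side of 0 for each of the 20 genes, which were chosen by their p in this same comparison, and pair 2 is the most distant for Hopx, Foxred2 and Trappc3.

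The p53 target genes were higher after IAPP in cells without urolithin B and close to their starting level in cells with it. Of 38 listed genes of arrest, feedback and death, 34 were tested. With urolithin B 0 of them were called by edgeR after IAPP. At an unadjusted p under 0.05, 4 were higher (4.04% of all tested genes were) and 0 lower (3.13% were). Without urolithin B, 19 of the same 34 were called higher and 0 lower, against 3.78% of all tested genes called higher. Their median log2 change was 0.10 with urolithin B and 0.72 without it, where the medians over all tested genes were 0.01 and 0.04. For 29 of the 34 the 95% interval of the change with urolithin B lay within 2-fold either way. The difference between the settings was called lower with urolithin B for 15 and higher for 0. The genes were listed with earlier results of these data known, so these counts describe them and are no independent evidence.

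Cdkn1a, the gene of p21, an inhibitor of cyclin-dependent kinases, was at 19.98, 23.02 and 17.5 CPM in urolithin B replicates 1, 2 and 3 and at 25.3, 18.5 and 22.7 CPM after IAPP. The groups overlapped and the pairs did not share a direction. The log2 difference was 0.13 ± 0.15 (SE, n = 3, 95% interval -0.17 to 0.44, edgeR adjusted p = 0.898). Without pretreatment Cdkn1a was at 17.8, 20.3 and 15.4 CPM in control and 174, 138 and 151 CPM in IAPP libraries, a log2 fold change of 3.11 ± 0.13 (SE, n = 3, edgeR adjusted p = 2.15e-14). The difference between these effects was -2.98 ± 0.20 (95% interval -3.39 to -2.57, edgeR adjusted p = 7.06e-10). Its promoter, shown above, held a p53 decamer, as 7.98% of all windows do. That motif was added after the values were seen, and its part in these results was not tested.

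Mdm2, the ubiquitin ligase that restrains p53, was at 66.5, 59.7 and 45.3 CPM with urolithin B alone and 60.2, 62.3 and 62.2 CPM after IAPP, and all 3 values after IAPP fell within the range of the other group. Its difference with urolithin B was 0.11 ± 0.12 and its difference between settings -1.71 ± 0.17 (edgeR adjusted p = 6.45e-07). Ccng1, a cyclin raised by p53, was at 226, 314 and 267 CPM and 204, 309 and 375 CPM with pretreatment. The difference between settings was -2.13 ± 0.17 (edgeR adjusted p = 1.06e-08). Tp53inp1, a stress-induced protein that promotes death and autophagy, was at 25.997, 16.3 and 13.3 CPM and 27.2, 15.9 and 18.5 CPM with pretreatment. The difference between settings was -2.79 ± 0.20 (edgeR adjusted p = 2.72e-09). For each of these genes the IAPP libraries without pretreatment lay above all 9 other libraries.

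Most p53 genes had values above 0 after IAPP with urolithin B as well, without passing the test. These were 10 of 11 arrest genes, 4 of 7 feedback regulators and 11 of 16 death genes, against 8822 of all 16814 tested genes. With scaling to library size alone they were 6, 3 and 8, against 5807 of all genes. Bbc3, which encodes the pro-death BCL2-family protein PUMA, was at 21.4, 14.5 and 24.5 CPM with urolithin B alone and 30.7, 29.8 and 28.4 CPM after IAPP, with no overlap. The log2 difference was 0.57 ± 0.15 (SE, n = 3, unadjusted p = 0.000876, edgeR adjusted p = 0.351), against 1.70 without pretreatment, and the difference between settings was -1.13 ± 0.21 (edgeR adjusted p = 0.00294). Part of this shift sat in pair 2, with pair differences of 0.51, 1.02 and 0.21. Btg2, an antiproliferative gene, was at 50.4, 45.1 and 64.8 CPM and 58.6, 68.8 and 65.3 CPM, a difference of 0.27 ± 0.12 with and 1.61 without pretreatment. The difference between settings was -1.33 ± 0.16 (edgeR adjusted p = 1.51e-05). Apaf1, the scaffold of the apoptosome, differed by 0.29 ± 0.13 with and 0.52 without pretreatment, and Mdm4, a partner of Mdm2, by 0.21 ± 0.12 and 0.58, and the difference between settings was called for neither. Gadd45a, a growth arrest gene, differed by 0.25 ± 0.18 with and 0.31 without urolithin B.

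Over the whole table the IAPP effect differed between the settings for 274 genes (1.63%), 103 of them higher with urolithin B (0.613%) and 171 lower (1.02%), by edgeR at an adjusted p under 0.05. Of these genes, 260 were called in IAPP against control, and the effect was smaller in size with urolithin B for 264. Their median absolute log2 change was 0.14 with urolithin B and 0.81 without it. The signs in the 2 settings were opposite for 200, and 55 had an unadjusted p under 0.05 with urolithin B (7.17% of all tested genes did). The share called was larger among the 636 genes raised by IAPP alone (161, 25.3%) than among the 680 lowered (99, 14.6%), as a count without a test. Without the replicate block 5 genes differed (0.0297%): Cdkn1a, Mdm2, Zmat3, Aen and Il15, the last 3 named after their values were seen. Leaving out 1 library gave 303, 395 and 317 genes without urolithin B replicates 1, 2 and 3, 245 without urolithin B + IAPP replicate 1, 142 genes without urolithin B + IAPP replicate 3 and 167 without replicate 2 of that group, 143 and 176 without control replicates 2 and 3, and 163 and 167 without IAPP replicates 2 and 3.

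The 10 genes with the smallest p for this difference were Cdkn1a, Tp53inp1, Ccng1, Fat1, Mdm2, Pvt1, LOC690918, Ckap2, Mgmt and Rprml. Fat1, a large atypical cadherin, was at 60.8, 103 and 95.6 CPM with urolithin B alone and 65.9, 106 and 95.2 CPM after IAPP, and its log2 value was 0.05 with and 1.51 without pretreatment. Ckap2, a spindle-associated protein, had log2 values of -0.06 with and 1.47 without pretreatment, and Mgmt, which repairs alkylated guanine in DNA, -0.04 and 1.41. Rprml, related to the arrest gene reprimo, was at 148, 93.5 and 89.4 CPM and 132, 93.8 and 79.2 CPM with pretreatment, a log2 value of -0.11 against -1.54 without it.

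Pvt1 and LOC690918 had an unadjusted p under 0.05 in the pretreated cells as well, the only 2 of these 10 to do so. Pvt1, a long noncoding RNA gene, was at 89.8, 67.3 and 53.8 CPM with urolithin B alone and 76.9, 43.02 and 40.4 CPM after IAPP, lower in each pair although the groups overlapped. The log2 difference was -0.42 ± 0.12 (SE, n = 3, edgeR adjusted p = 0.415), whereas without pretreatment IAPP libraries were higher by 1.25. LOC690918, a gene known only by that name, was at 114, 149 and 125 CPM and 92.5, 104 and 104 CPM, with no overlap, a difference of -0.37 ± 0.10 against -1.80 without pretreatment.

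**Figure D3:**
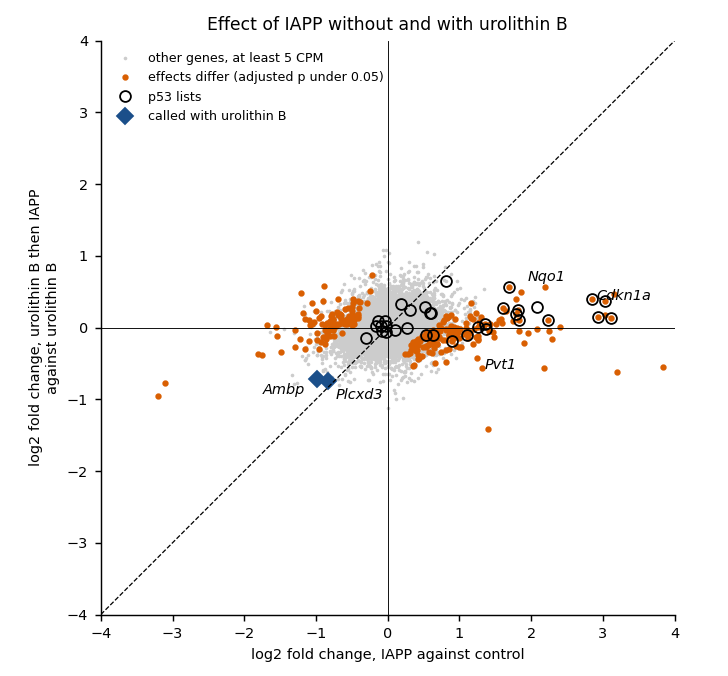
Log2 fold change of each gene after IAPP in cells with urolithin B (vertical axis) and without it (horizontal axis), both axes on the same scale. Orange points are the 274 genes whose effects differed, open circles the tested p53 genes and blue diamonds Ambp and Plcxd3, and the dashed line marks equal effects. Orange points spread along the horizontal axis and stay near 0 on the vertical one, and Ambp and Plcxd3 lie close to the dashed line.

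Beta-cell identity genes gave 0 edgeR calls after IAPP in pretreated cells. Of 19 tested identity factors 0 were called with urolithin B and the median log2 difference was -0.12. With an unadjusted p under 0.05, 1 was higher (4.04% of all tested genes were) and 2 lower (3.13% were). Mafa, which drives the insulin genes in mature beta cells, was at 380.2, 247 and 358 CPM with urolithin B alone and 275, 313 and 284 CPM after IAPP. Urolithin B replicate 2 was the lowest of the 6 and the other two replicates of that group the highest. The log2 difference was -0.16 ± 0.14 (SE, n = 3, 95% interval -0.45 to 0.12), against -1.22 without pretreatment, and the difference between settings was 1.06 ± 0.20 (edgeR adjusted p = 0.00343). With libraries left out the Mafa value with urolithin B ran from -0.40, without all replicate 2 libraries, to -0.03, without all replicate 1 libraries. Slc2a2, the glucose transporter GLUT2, was at 509, 706 and 555 CPM and 496, 628 and 614 CPM, a difference of -0.02 ± 0.10 against -0.78 without pretreatment. The difference between settings was 0.76 ± 0.14 (edgeR adjusted p = 0.00376). Insm1, a zinc-finger factor of endocrine cells, differed by 0.29 ± 0.12, and Myt1, a neuroendocrine factor, by -0.27 ± 0.12. The Insm1 groups did not overlap, but its replicate 1 was nearly level in both.

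The insulin genes varied more between replicates than between the groups. Ins1 was at 10197, 21327 and 15196 CPM with urolithin B alone and 11045, 19320.2 and 19003 CPM after IAPP, with replicate 1 lowest in both groups. The log2 differences were 0.10 ± 0.14 (95% interval -0.19 to 0.39) for Ins1 and -0.11 ± 0.14 (95% interval -0.39 to 0.17) for Ins2. The table lists the endogenous Iapp gene at 0 counts in all 12 libraries, so no level of it is given, and Neurod1, another beta-cell gene, is also listed at 0. Among 20 tested genes of hormones, processing and granule cargo 0 were called. Scg5, the chaperone of prohormone convertase 2, was at 443, 376 and 377 CPM and 342, 316 and 295 CPM, without overlap, a difference of -0.33 ± 0.10 (edgeR adjusted p = 0.429) against -0.43 without pretreatment. Ero1b, an oxidase of insulin folding, differed by 0.32 ± 0.11.

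Genes of glucose sensing and excitability lay mostly below 0 after IAPP, and 0 were called by edgeR, while DESeq2 called Cacna1a. Of 16 tested, 13 had a value below 0, against 7992 of all 16814 tested genes, and the median was -0.13. An unadjusted p under 0.05 was found for 3 on the lower side (3.13% of all tested genes) and 0 on the higher side (4.04%). Besides Cacna1a, Glp1r, the receptor of the incretin hormone GLP-1, was at 35.2, 43.4 and 34.1 CPM with urolithin B alone and 29.1, 31.5 and 27.9 CPM after IAPP, without overlap, a difference of -0.35 ± 0.12 (edgeR adjusted p = 0.623). Without pretreatment Glp1r differed by -0.04, and the difference between the settings was not called (edgeR adjusted p = 0.475). Of the 12 tested BCL2-family genes 0 were called, and Bad, a pro-death member, stood at 42.4, 41.7 and 50.7 CPM and 47.7, 67.6 and 71.3 CPM, a difference of 0.46 ± 0.12 (edgeR adjusted p = 0.309).

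Among genes of protein folding stress, the edgeR fit described above made 0 calls with urolithin B. Of 25 genes of the unfolded protein response, Manf among them, 0 were called by edgeR and 1, Manf, by DESeq2. At an unadjusted p under 0.05, 5 were higher (4.04% of all tested genes were) and 1 lower (3.13% were). The median was 0.07 against -0.21 without pretreatment. Hspa5, the chaperone BiP, was at 1212, 1623 and 2093 CPM and 969, 2136 and 1959 CPM with pretreatment, a difference of -0.01 ± 0.12 (95% interval -0.26 to 0.24). Without pretreatment it was called lower, at -0.57 ± 0.12 (edgeR adjusted p = 0.00295), and the difference between settings was not called (edgeR adjusted p = 0.0974). Atf6, a membrane-bound sensor of the response, was at 94.97, 100.005 and 109 CPM and 64.3, 83.1 and 89.1 CPM, without overlap, a difference of -0.37 ± 0.11 (edgeR adjusted p = 0.429). Ddit3, which encodes the stress factor CHOP, differed by -0.06 ± 0.18 (95% interval -0.42 to 0.30).

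In the ATF4 list, which holds amino acid synthesis and tRNA charging genes, 0 of 22 were called. By unadjusted p under 0.05, 1 was higher (4.04% of all tested genes were) and 3 lower (3.13% were). Sars, the seryl-tRNA synthetase, was at 48.5, 57.1 and 48.95 CPM and 35.6, 36.9 and 42.2 CPM, without overlap, a difference of -0.43 ± 0.11 (edgeR adjusted p = 0.361) against -0.62 without pretreatment. Atf5, a factor of the same pathway, differed by -0.36 ± 0.14 and -0.80. Without pretreatment 8 of the 22 were called lower, as were 4.04% of all tested genes. Of the 13 tested cytosolic heat shock genes 12 lay below 0 with urolithin B, against 7992 of all 16814 tested genes, and the median was -0.14. Of the 12, 1 had an unadjusted p under 0.05, where 3.13% of all tested genes were lower.

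Ribosomal protein genes, 50 of 78 of which were called lower after IAPP alone (4.04% of all tested genes were), showed 0 calls with urolithin B. Their median log2 difference was -0.09 with urolithin B and -0.42 without it. With urolithin B 2 were higher (4.04% of all tested genes were) and 8 lower (3.13% were) at an unadjusted p under 0.05. By pair, their medians were 0.03, -0.26 and 0.02. Of the 78, 17 were lower in all 3 pairs (11.5% of all genes were) and 7 higher in all 3 (13.6% of all genes were). Rps12, a protein of the small subunit, was at 149, 199.9 and 128 CPM and 121, 123 and 114 CPM, without overlap, a difference of -0.40 ± 0.12, and Rps4x, of the same subunit, differed by -0.36 ± 0.11, both with an edgeR adjusted p above 0.05 (0.428 and 0.429). Reads of these genes are uncertain because of their many processed copies. In ribosome biogenesis 0 of 22 genes were called, and Nop56, a nucleolar methylation-complex protein, was at 52.5, 57.9 and 66.1 CPM and 28.3, 50.8 and 50.3 CPM, without overlap, a difference of -0.48 ± 0.12, with Gnl3, nucleostemin, at -0.30 ± 0.13.

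Mitochondrial transcripts differed between pairs in the direction of their median. All 15 tested transcripts of the mitochondrial genome had a fitted value above 0 (8822 of all 16814 tested genes did), with a median of 0.36. An unadjusted p under 0.05 was found for 7 of them, where 4.04% of all tested genes were higher. With scaling to library size alone 14 of the 15 lay above 0. By pair, however, their medians were -0.38, 0.81 and 0.59. Of the 15, 2 were higher in all 3 pairs (13.6% of all genes were), CYTB and COX3, which were also those with the smallest p. CYTB, cytochrome b of complex III, was at 3636, 5879 and 5413 CPM and 3958, 11347 and 8991 CPM, a difference of 0.60 ± 0.16 (edgeR adjusted p = 0.353), and COX3, a subunit of complex IV, at 0.57 ± 0.18. The share of counts on mitochondrial rRNA moved likewise: 8.83%, 13.8% and 13.7% with urolithin B alone and 6.52%, 19.4% and 17.1% after IAPP, down in pair 1 and up in pairs 2 and 3. Its part in the results of these transcripts was not tested.

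**Figure D4:**
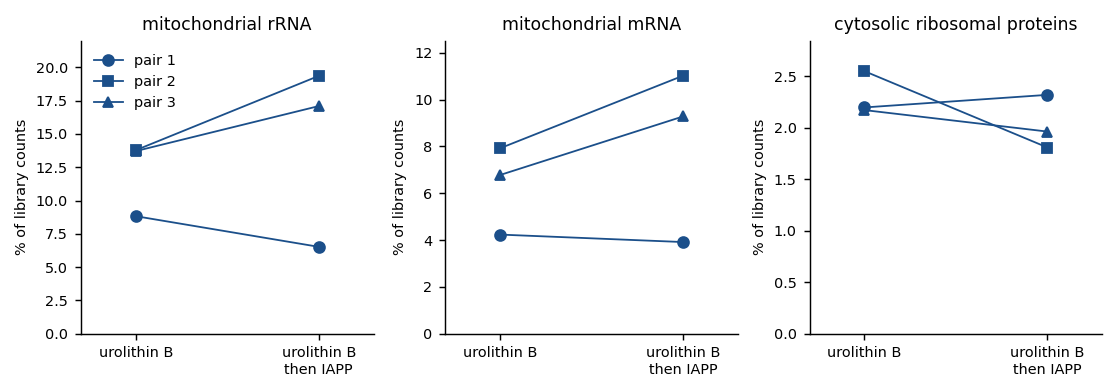
Share of library counts, in percent from 0, on mitochondrial rRNA, mitochondrial mRNA and cytosolic ribosomal protein genes in the 3 pairs of urolithin B libraries, each line joining same-numbered libraries. Mitochondrial shares are lower after IAPP in pair 1 and higher in pairs 2 and 3, and the ribosomal protein share runs the other way.

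Nuclear genes of the mitochondrion gave small values on the higher side. Of 69 tested respiratory chain genes 53 lay above 0, against 8822 of all 16814 tested genes. In all 3 pairs 20 were higher (13.6% of all genes were) and 1 lower (11.5% were). An unadjusted p under 0.05 was found for 5 higher (4.04% of all genes) and 1 lower (3.13%), and 0 were called. Ndufa4, a subunit of complex IV, was at 311, 328 and 421 CPM and 406, 474 and 455 CPM, a difference of 0.34 ± 0.10, and Uqcr11, a complex III subunit, differed by 0.34 ± 0.11. Of 51 mitochondrial ribosomal protein genes 9 were higher (4.04% of all tested genes were) and 0 lower (3.13% were) at an unadjusted p under 0.05. Among the 9 were Mrpl14 at 0.42 ± 0.12 with no overlap and Mrps17 at 0.37 ± 0.11. The medians of both lists were 0.06 with TMM scaling and fell to -0.04 and -0.05 with scaling to library size alone, under which the median of all genes was -0.09.

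Cell cycle genes gave 0 calls, with more values on the higher than on the lower side. Of 26 tested genes of S phase and DNA replication 12 were higher in all 3 pairs (13.6% of all genes were) and 1 lower in all 3. At an unadjusted p under 0.05, 7 were higher (4.04% of all tested genes were) and 1 lower (3.13% were), and 0 were called. Pcna, the sliding clamp of DNA polymerase, was at 143, 189 and 171 CPM and 207, 226 and 245 CPM, without overlap, a difference of 0.44 ± 0.11 (edgeR adjusted p = 0.277), and Mcm7, of the replicative helicase, differed by 0.32 ± 0.12. Without pretreatment Pcna differed by 0.12. Of 29 genes of G2 and mitosis 4 were higher (4.04% of all tested genes were) and 0 lower (3.13% were) at an unadjusted p under 0.05. Kif2c, a mitotic kinesin, differed by 0.31 ± 0.13. Cdc20, an activator of the anaphase-promoting complex, differed by 0.39 ± 0.15, where urolithin B replicate 2 at 45.4 CPM was the lowest library. The medians of the S phase and the mitosis list were 0.15 and 0.04, and 0.04 and -0.07 with scaling to library size alone.

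Nqo1, a quinone reductase raised by both NRF2 and the aryl hydrocarbon receptor, was at 5.13, 5.75 and 5.01 CPM with urolithin B alone and 8.10, 7.13 and 7.35 CPM after IAPP, without overlap. The log2 difference was 0.50 ± 0.23 (SE, n = 3, unadjusted p = 0.0382, edgeR adjusted p = 0.691). Without pretreatment it was at 5.10, 4.26 and 5.05 CPM in control and 19.4, 16.2 and 16.4 CPM in IAPP libraries, and the difference between the effects was -1.35 ± 0.32 (edgeR adjusted p = 0.0238). Of 6 tested genes of the aryl hydrocarbon receptor list 4 were called higher without pretreatment (3.78% of all tested genes were) and 0 with it. That list was written with earlier results known. Beside targets it holds the receptor Ahr, its partner Arnt and Lrrc25, so the count is no measure of the receptor's activity. Ahr itself differed by 0.68 ± 0.35 with pretreatment. Of 19 tested genes of the NRF2 list, which holds Nfe2l2 and Keap1 beside targets, 0 were called with pretreatment. Prdx1, a peroxiredoxin, differed by 0.32 ± 0.12 and Tkt, transketolase, by -0.25 ± 0.10.

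Inflammatory and metabolic genes gave 0 calls too. In the NF-kB list, 2 of 12 genes were higher at an unadjusted p under 0.05 (4.04% of all tested genes were). Nfkb2, a subunit, differed by 0.63 ± 0.24. Nfkbia, the inhibitor that NF-kB induces, was at 27.6, 25.5 and 33.9 CPM and 36.7, 36.9 and 34.7 CPM, without overlap, a difference of 0.33 ± 0.13. Txnip, a glucose-responsive inhibitor of thioredoxin linked to the inflammasome, was at 91.6, 26.9 and 43.6 CPM and 59.3, 38.2 and 38.3 CPM, a difference of -0.16 ± 0.15. Replicate 1 was its highest library in both groups, and without the replicate 1 libraries the difference was 0.12. In cholesterol synthesis and uptake 11 of 23 genes were called lower without pretreatment (4.04% of all tested genes were) and 0 with it. With pretreatment 3 were higher at an unadjusted p under 0.05, where 4.04% of all tested genes were higher. Insig1, the sterol-sensing regulator of that pathway, was at 26.5, 55.4 and 53.003 CPM and 34.2, 59.8 and 68.2 CPM, a difference of 0.27 ± 0.11 against -0.55 without pretreatment, and the difference between settings was 0.82 ± 0.16 (edgeR adjusted p = 0.00513). Tm7sf2, a sterol reductase, differed by 0.41 ± 0.17.

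Among 27 tested genes of glycolysis and hypoxia 1 was higher (4.04% of all tested genes were) and 2 lower (3.13% were) at an unadjusted p under 0.05. P4ha1 was at 94.8, 91.3 and 89.6 CPM and 70.7, 69.04 and 62.7 CPM. Pfkm, muscle-type phosphofructokinase, was at 44.9, 51.6 and 53.8 CPM and 58.3, 65.7 and 58.8 CPM. Neither gene overlapped between groups. In the list of amyloid degradation and the amylin receptor 0 of 15 were called. Ece2, an endothelin-converting metalloprotease, was at 31.1, 43.5 and 41.2 CPM and 46.4, 52.2 and 51.5 CPM, without overlap, a difference of 0.38 ± 0.11 (edgeR adjusted p = 0.449). Bace2, a beta-cell protease that cleaves amyloid precursor family proteins, was at 159, 118 and 119 CPM and 116, 112 and 113 CPM, also without overlap, a difference of -0.21 ± 0.12 against 0.37 without pretreatment.

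Over all 35 gene lists, 0 had a member called with urolithin B by the edgeR fit described above (DESeq2 called Manf and Cacna1a, each in 1 list), 31 had one called without it and 17 had one whose effect differed between the settings. Other edgeR settings did call list members with urolithin B. Without a filter on low counts these were Cacna1a, COX3, CYTB, Manf, ND5, Pcna and Psmb3. Without urolithin B replicate 2 they were Eno2, Manf and Pkm, and without all replicate 2 libraries Eno2 and Pkm. The medians of the lists ran from -0.14 to 0.36 with urolithin B and from -0.42 to 1.35 without it. Scaling to library size alone lowered the median of all genes with urolithin B from 0.01 to -0.09, and list medians of 0.01 to 0.09 fell below 0 under it.

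**Figure D5:**
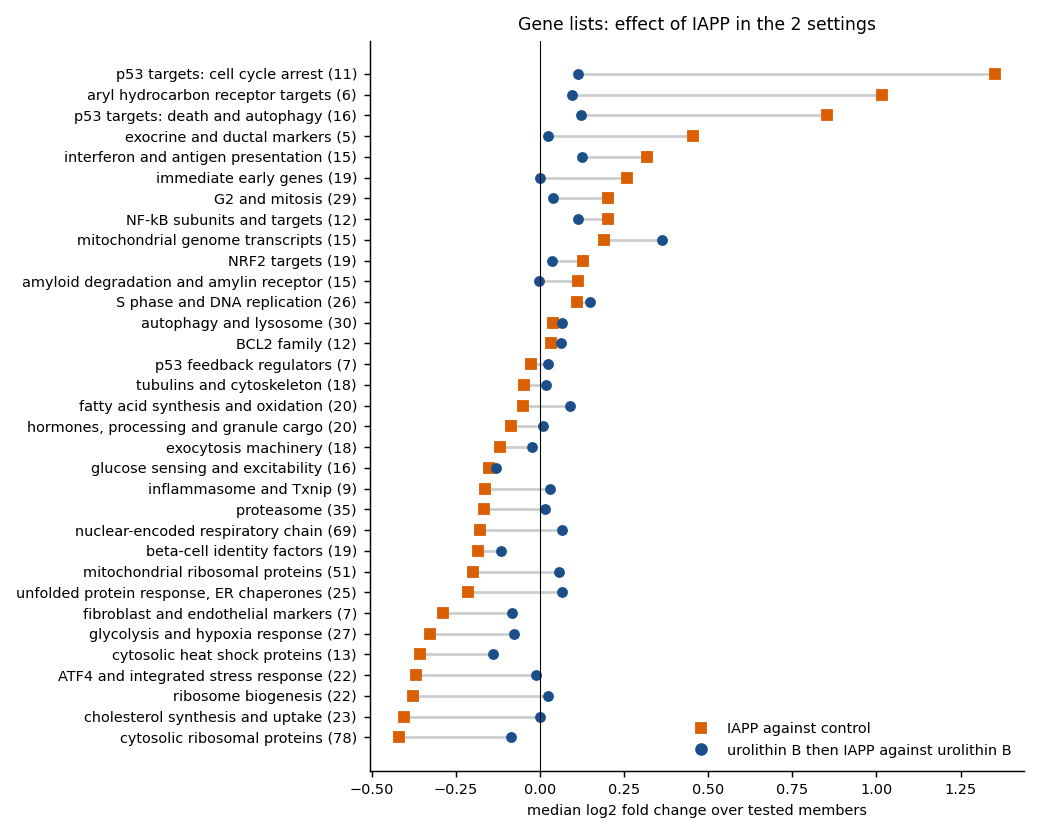
Median log2 fold change over the tested members of each gene list (their number in brackets) after IAPP without urolithin B (orange squares) and with it (blue circles), sorted by the former. Medians with urolithin B lie between -0.14 and 0.36, and those without it between -0.42 and 1.35.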

How the data were processed

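RNA of INS-1 832/3 cells, extracted with the High Pure kit, was made into QuantSeq 3prime mRNA FWD libraries, which read the end of polyadenylated transcripts, per the labels' protocols. The authors deposited whole-number read counts per gene for 12 libraries, and the submitters' processing notes name FastQC, Bowtie2 and SAMtools. For the build, annotation, counter, strand setting and versions: not given in the sources used here. Of 31368 gene names in the table, 22967 matched a RefSeq (GRCr8) symbol or synonym. RefSeq served for names and promoter windows, found for 61 of 79 named genes. Counts were tested with edgeR 4.0.16 (R 4.3.3) by its quasi-likelihood test, after filterByExpr and TMM scaling, in 1 fit of all 12 libraries with group and replicate number as terms and with Benjamini-Hochberg adjustment at 0.05. CPM are counts scaled to library size and TMM factor. ± is the standard error, and intervals (95%) use the moderated degrees of freedom. The difference between settings is the interaction contrast. The procedure was tested on simulated data.

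The replicate numbers come from the titles. All 18 pairs of same-numbered libraries had correlated deviations from the group means (r from 0.44 to 0.89). With replicate 1 left out, r ran from -0.06 to 0.02. An outlying replicate 1 shifts the group mean, so the other libraries of each group deviate the opposite way together. The correlations therefore cannot show whether the other replicate numbers pair libraries. The replicate number was kept as a block. The common biological coefficient of variation was 0.104 with and 0.332 without it. Named were 12 genes in any case, the 10 genes with the smallest p in each direction where fewer than 5 were called, the 10 with the smallest p for the difference among genes of at least 5 CPM, and the 2 members with the smallest p of each list described, which held no member called by edgeR. The genes and lists were chosen with earlier results of these data known. Within each group, any 2 libraries differed by more than sampling noise. Alternatives tried were no block, replicate 1 alone as block, the 6 libraries alone, DESeq2 1.42.0, limma-voom 3.58.1, other scalings and filters, and libraries left out.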

Additional observations from a re-analysis of the deposited data

Results flagged for a closer look

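For 18 of the named genes, the log2 effect of IAPP with urolithin B minus that without it passed edgeR's test of the difference itself, with a replicate block, at an adjusted p under 0.05. The value was below 0 for the p53 targets Cdkn1a (-2.98), Tp53inp1 (-2.79), Ccng1 (-2.13), Mdm2 (-1.71), Btg2 (-1.33) and Bbc3 (-1.13), and for Pvt1 (-1.67), Ckap2 (-1.54), Fat1 (-1.47), Mgmt (-1.45) and Nqo1 (-1.35). It was above 0 for LOC690918 (1.44), Rprml (1.43), Mafa (1.06), Med21 (0.95), Insig1 (0.82), Slc2a2 (0.76) and Manf (0.76). The call for Cdkn1a and for Mdm2 was kept under all 24 alternatives that give a difference, that for Nqo1 under 9 and that for Med21 under 7 of the 24. For Manf and Med21 the effects without urolithin B, -0.25 and -0.22, were not called. Tp53inp1, Fat1, Pvt1, LOC690918, Ckap2, Mgmt and Rprml were named for their small p in this same test, so their passing was set by that choice. Manf, Med21, Insig1, Btg2 and Bbc3 were named by their p in the comparison with urolithin B, which is 1 part of the difference.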

How the results depend on the processing

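With the replicate block 0 genes were higher, 2 lower and 274 differed between settings. With no replicate block these counts were 0, 0 and 5, and with replicate 1 against the others as the block 0, 1 and 273. The 6 libraries alone gave 0 and 0. DESeq2 gave 1, 6 and 276, scaling to library size alone 0, 2 and 171, and no filter on low counts 19, 14 and 475. Leaving out libraries gave 0 to 4 higher, 0 to 18 lower and 70 to 395 different, where the 18 lower came without all replicate 2 libraries and the 70 without all replicate 3 libraries. The alternatives that leave out control or IAPP libraries were chosen after seeing the data. Voom, RLE scaling, mitochondrial rRNA left out and a stricter filter kept all 3 counts within 1.5 times. Ambp was called under 16 and Plcxd3 under 17 of 25 alternatives. Small values changed sign: Ins1 was -0.01 and Fat1 -0.07 with library size alone, and Hspa5 0.04 with no replicate block. With libraries left out the log2 fold changes with urolithin B ran from -0.01 to 0.22 for Ins1, -0.33 to 0.08 for Ins2, -0.04 to 0.22 for Mdm2, -0.08 to 0.21 for Ccng1, -0.11 to 0.06 for Slc2a2, -0.18 to 0.07 for Ddit3, -0.21 to 0.12 for Hspa5, -0.44 to 0.13 for Txnip, -0.01 to 0.09 for Fat1, -0.22 to 0.10 for Ckap2, -0.17 to 0.06 for Mgmt and -0.02 to 0.35 for Mdm4. The cause was not tested. At these depths, changes under 2-fold of genes near 1 CPM, such as Trnak-cuu and Foxred2, were not measured closely.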
